A study of Mus musculus with 847 samples.

Results

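The 36 genes described here are transcripts that interferons are known to induce, the interferon response genes, followed in bulk RNA sequencing of 15 brain regions from 59 C57BL/6JN mice. The members were given as a list of symbols chosen by function, and all 36 listed symbols were among the 21076 genes of the count table. The mice were 3, 12, 15, 18, 21, 26 or 28 months old and carried no labelled genotype or treatment. There were 5 females and 5 males at 3, 12, 15 and 18 months, 5 females and 6 males at 21 months, and males only at 26 months (5 mice) and 28 months (3 mice). Each of the 847 libraries came from 1 homogenised region of 1 mouse, so fewer cells of a type and less RNA per cell cannot be told apart in any value below.

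Interferons are secreted proteins that cells release after sensing viral or misplaced nucleic acid. Type I interferons bind a receptor at the cell surface, and the receptor's kinases activate transcription factors, among them Stat2, which acts with Irf9 at a DNA element in the promoters of the response genes. The products of these genes sense foreign RNA, block its translation, degrade it, hold virus particles at membranes or tag proteins, and some, such as Irf7 and Usp18, raise or damp the response itself. In the brain, microglia, astrocytes, endothelial cells and neurons can all carry such a response, and the transcripts were read here in whole tissue.

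The element at which Stat2 and Irf9 act is shown because it joins members of very different function. Promoter sequences of 30 of the 36 members were present in RefSeq (GRCm38.p6). The letters GAAANNGAAA, the core of the interferon-stimulated response element, were searched on both strands in the 250 bases before the gene's start, where a match on the other strand reads TTTCNNTTTC. They were present in 14 of the 30 members (46.7%) and in 3.46% of the 27025 genes with a promoter entry. The letters TTCNNNGAA of the gamma-interferon activated site, which can share bases with the first pattern, were present in 5 of the 30 (16.7%) and in 8.13% of all genes. A match describes the letters and is no evidence of binding. The following stretches lie upstream of the start, run 5′ to 3′ on the gene's strand, and show the matched letters in capitals. They are given for 8 members that rose with age in 6 or more regions, as described below, and last for Stat2, which rose in 3. The letters were also present before Ddx60, Gbp3, Ifit3 and Oas1a, and before Ifitm2, which rose in none.
Isg15 (chr4:156200860-156200899, minus strand): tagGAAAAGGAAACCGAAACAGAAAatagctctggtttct
Ifit1 (chr19:34640789-34640828, plus strand): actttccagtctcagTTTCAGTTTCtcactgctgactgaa
Rsad2 (chr12:26456548-26456587, minus strand): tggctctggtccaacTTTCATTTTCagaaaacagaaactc
Bst2 (chr8:71537572-71537611, minus strand): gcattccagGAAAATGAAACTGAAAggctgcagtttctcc
Trim30a (chr7:104465205-104465244, minus strand): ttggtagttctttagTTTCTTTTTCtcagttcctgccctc
Irgm1 (chr11:48871421-48871459, minus strand): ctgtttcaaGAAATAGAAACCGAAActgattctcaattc
Igtp (chr11:58199507-58199546, plus strand): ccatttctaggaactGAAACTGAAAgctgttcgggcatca
Gbp2 (chr3:142620589-142620628, plus strand): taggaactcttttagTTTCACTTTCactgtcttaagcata
Stat2 (chr10:128270261-128270300, plus strand): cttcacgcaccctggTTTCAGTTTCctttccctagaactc
The median over members of the mean slope with age, described next, was 0.041 log2 per month for the 14 members with the letters (0.00088 to 0.056) and 0.024 for the 16 without them (0.0028 to 0.056). The ranges overlapped, the median number of regions in which a member rose was 8.5 with and 8.0 without the letters, and no test was made.

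Depth per library was 6716032 reads at the median (lowest 481444, highest 26756735), and it fell short of 1000000 in 10 libraries. By age, median depth was lowest at 18 months (6327609 reads) and highest at 28 months (7490224 reads). Mice numbered 1 to 15 in the labels were all 12 or 26 months old, mice 16 to 56 were 3, 15, 18 or 21 months old, and mice 57 to 59 were the 28-month males, so whatever the numbering stands for cannot be told apart from those ages. In 3 libraries the values went against the labels. The subventricular zone library of mouse 3, labelled male, had 116 counts per 1000000 (CPM) of Xist, whereas no other male library exceeded 14.7 CPM. The posterior hippocampus library of mouse 38, labelled female, had 24.2 CPM of 4 Y-linked transcripts together, against at most 5.01 CPM in other female libraries. The entorhinal cortex library of mouse 52 was closer to the mean profile of medulla (r = 0.990 across genes) than to that of entorhinal cortex (r = 0.963). Results that rest on these libraries were also computed without them.

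The first comparison asked in which regions the response rose with age. Change with age was the slope of log2 expression per month beside sex, fitted in each region with edgeR's quasi-likelihood test over all genes, with Benjamini-Hochberg adjusted p-values and a threshold of 0.05. Of 540 member and region pairs, 538 passed the filter on low counts. Oas1a was the exception, in posterior hippocampus and visual cortex. Slopes were positive in 503 of the 538 pairs. The response rose past the threshold in 302 pairs and fell in 1, whereas over all genes and regions 6.37% of tests were higher and 5.10% lower.

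The subventricular zone, the stem cell niche along the lateral ventricle, had the highest count with all mice. There 34 of 36 members rose (background 4.85% of genes), with a median slope of 0.069 log2 per month, and 31 of the 36 members had their steepest slope of any region there. In corpus callosum, the large white matter tract between the hemispheres, 33 of 36 rose (background 9.65%), with a median slope of 0.059. Choroid plexus, the epithelium and stroma that secrete cerebrospinal fluid, also had 33 of 36 (background 11.5%), with a median of 0.043. Medulla had 30 (6.56%), caudate putamen 29 (7.68%), pons 26 (4.62%), cerebellum 25 (10.5%) and hypothalamus 25 (4.13%). The regions at the lower end were posterior hippocampus with 17 of 35 (4.53%), anterior hippocampus with 15 of 36 (6.89%), motor cortex with 15 (8.39%), thalamus with 13 (2.78%) and visual cortex with 7 of 35 (5.81%). Microglia markers moved with these results in part. Of 10 markers 9 rose in subventricular zone and none in motor cortex, but 9 rose in each hippocampus and 8 in thalamus. In caudate putamen 5 rose. With these markers as a covariate 107 pairs rose (background 6.16%), 4 of them in subventricular zone (5.49%). With mice numbered 16 to 56 alone 162 pairs rose (4.22%). Of them 13 were in subventricular zone (1.85%), 5 in corpus callosum (4.75%) and 3 in caudate putamen (3.64%). In the 37 mice with a library of every region, of which 1 was 26 and 2 were 28 months old, 162 pairs rose as well (3.80%). The order of regions was another there. Pons had 31 (5.51%), hypothalamus 27 (3.52%), choroid plexus 25 (12.5%), corpus callosum 9 (6.62%) and subventricular zone 6 (1.31%). Without the 28-month mice caudate putamen had 8 (4.68%) and hypothalamus 12 (2.41%). Over all genes the median slope of a region lay between -0.00056 and 0.00056 log2 per month.

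**Figure D1:**
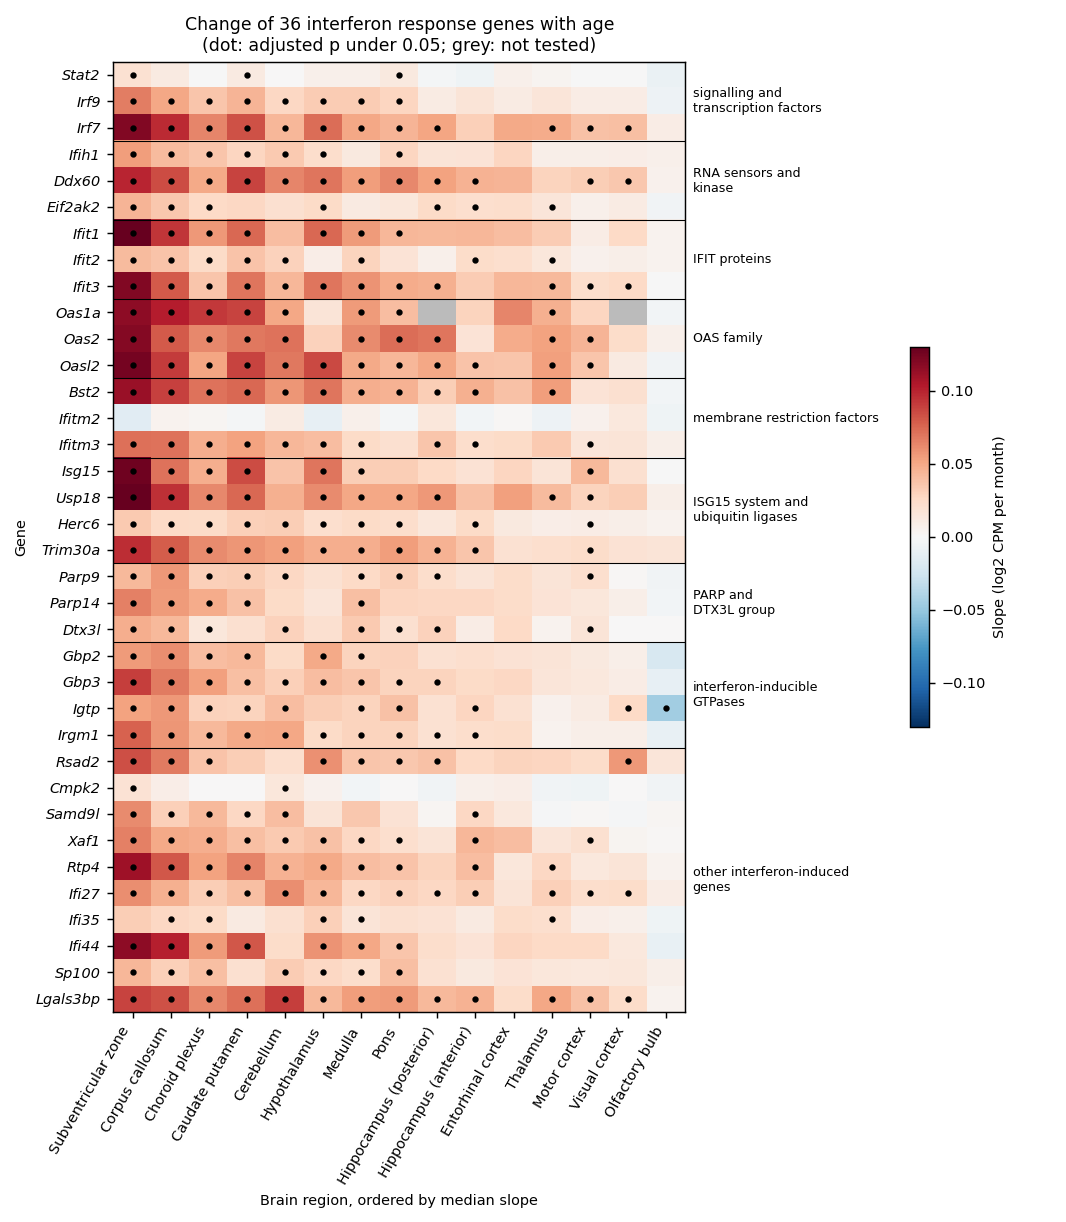
Slope of log2 CPM per month for each of the 36 members (rows, grouped by role) in the 15 regions (columns, ordered by median slope), as colour. Dots mark an adjusted p under 0.05 and grey cells were not tested. The dots fill the columns at the left, from subventricular zone with 34 of 36, and thin out to the right, where olfactory bulb has a single dot, the fall of Igtp.

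Entorhinal cortex and olfactory bulb had no member that rose past the threshold in edgeR's quasi-likelihood test, but they differed in their slopes. In entorhinal cortex all 36 slopes were positive, with a median of 0.024, and 21 had an unadjusted p under 0.05. In that region 0.186% of all genes were called higher. In olfactory bulb 18 slopes were positive and 18 negative, the median was 0.00026, and 3 had an unadjusted p under 0.05, whereas 7.78% of all genes there were called higher. Igtp in olfactory bulb was the only pair that fell (9.01% of all genes were lower there), by 0.045 ± 0.014 log2 per month (adjusted p = 0.0180). One library set its 3-month range: Igtp, a GTPase that acts on parasite vacuoles and autophagy, had 121 CPM in male mouse 33, against a median of 12.1 CPM among the 10 libraries of that age. Without mouse 33 the slope of Igtp was -0.0024 with an adjusted p of 0.862. In that fit 3 of 36 members rose in olfactory bulb, near the background of 7.32% of all genes. DESeq2 called no member in olfactory bulb and 2 higher in entorhinal cortex.

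The members are described by role, first the transcription factors and signalling genes. Irf7 (chr7:141263183-141266499, here and below in RefSeq GRCm38.p6) is the factor that amplifies type I interferon production, and it rose in 12 regions. In the subventricular zone its level at 3 months had a lowest, median and highest value of 0.941, 2.63 and 11.4 CPM among 10 libraries. At 21 months those values were 2.38, 7.55 and 26.5 CPM (n = 10). The 4 libraries at 26 months held 33.6, 19.9, 12.9 and 14.7 CPM, and the 3 at 28 months held 6.68, 16.9 and 55.0 CPM. All 26-month libraries were thus above all 3-month libraries, while 1 of the 28-month libraries was inside the 3-month range. The slope was 0.121 ± 0.021 log2 per month (adjusted p = 4.31e-05), or 8.09-fold over the 25 months between 3 and 28. Irf9, the DNA-binding subunit of the complex, rose in 8 regions, with 0.067 ± 0.012 in the subventricular zone. Stat2, its partner, rose in 3 regions, with at most 0.020 ± 0.0065, in the subventricular zone, a 1.42-fold change over the same span.

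The next members are RNA sensors and a kinase that double-stranded RNA activates. Ddx60 (chr8:61928073-62037704), a helicase linked to RNA sensing, rose in 12 regions, most steeply in the subventricular zone (0.099 ± 0.018 log2 per month, adjusted p = 8.08e-05). Its levels there were 0.941, 2.21 and 8.22 CPM at 3 months (lowest, median and highest of 10). At 26 months the 4 libraries held 16.0, 9.68, 5.72 and 3.68 CPM, and at 28 months the 3 held 6.06, 12.3 and 23.5 CPM. The ranges overlapped at each later age. Ifih1, the MDA5 sensor of long double-stranded RNA, rose in 7 regions, with 0.055 ± 0.011 in the subventricular zone. Eif2ak2, the kinase PKR that halts translation, rose in 7 as well, with 0.044 ± 0.011 there.

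IFIT proteins bind viral RNA and block its translation. Ifit3 (chr19:34583119-34588982) rose in 12 regions, Ifit2 in 8 and Ifit1 in 7. In the subventricular zone Ifit3 ran from 5.41 to 30.4 CPM with a median of 8.69 CPM at 3 months (n = 10), and from 15.6 to 128 CPM with a median of 31.0 CPM at 21 months (n = 10). The 26-month libraries held 109, 54.9, 29.6 and 46.0 CPM and the 28-month libraries 17.1, 68.1 and 162 CPM. The medians rose at each step listed, and the ranges overlapped. The slope of Ifit3 was 0.121 ± 0.019 (adjusted p = 1.12e-05). Ifit1 had the largest slope of any pair, 0.133 ± 0.024 in the subventricular zone, a 9.98-fold change over 25 months. Ifit3 has a near-identical neighbour, Ifit3b, so reads may be shared between them.

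The OAS family makes the signal that activates RNA degradation, and it had the highest share of rising pairs of the 9 roles, 30 of 43 (69.8%). Oasl2 (chr5:114896926-114912245), an OAS-like protein, rose in 12 regions, Oas2 in 10 and Oas1a in 8. In the subventricular zone Oasl2 ran from 2.60 to 29.6 CPM with a median of 5.51 CPM at 3 months (n = 10). At 26 months its 4 libraries held 69.4, 36.6, 32.1 and 23.9 CPM, and at 28 months the 3 held 10.4, 55.4 and 124 CPM. The highest 3-month value belonged to female mouse 37, and without it the 3-month libraries were lower than every 26-month library. The slope was 0.125 ± 0.021 (adjusted p = 2.00e-05), or 8.66-fold over 25 months. Oas1a has close copies in its cluster, so its level is uncertain.

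Membrane restriction factors split. Bst2 (tetherin, chr8:71534255-71537472), which holds budding virus at the cell surface, rose in 11 regions, and Ifitm3, which blocks virus entry in endosomes, rose in 10. Ifitm2, its near copy, rose in none by edgeR's quasi-likelihood test or DESeq2, with an unadjusted p under 0.05 in 2 regions, slopes positive in 8 of 15 and a largest value of 0.015 in posterior hippocampus. Bst2 in the subventricular zone ran from 1.64 to 8.11 CPM with a median of 3.07 CPM at 3 months (n = 10). The 26-month libraries held 38.9, 27.0, 25.6 and 18.4 CPM, all above the 3-month range, and the 28-month libraries held 6.31, 18.9 and 51.9 CPM. Its slope was 0.113 ± 0.019 (adjusted p = 2.67e-05). Ifitm3 had nearly equal slopes in subventricular zone (0.072 ± 0.012) and corpus callosum (0.071 ± 0.011). Reads of Ifitm2 and Ifitm3 may be shared.

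The ISG15 system conjugates a ubiquitin-like protein to others. Its conjugating ligase Herc6 and its protease Usp18, which also damps receptor signalling, rose in 10 regions each, and Isg15 itself rose in 7. Usp18 had a slope of 0.133 ± 0.024 in the subventricular zone, second only to Ifit1, with a 9.97-fold change over 25 months. Isg15 was a rare transcript there, with a median of 1.15 CPM at 3 months (n = 10) and 10.8, 4.72, 3.73 and 1.84 CPM in the 4 libraries at 26 months. Its slope was 0.126 ± 0.022. Trim30a (chr7:104409025-104465193), a tripartite-motif protein, rose in 11 regions. In the subventricular zone it ran from 1.24 to 4.84 CPM with a median of 1.88 CPM at 3 months (n = 10), and the 26-month libraries held 13.6, 10.3, 8.21 and 5.52 CPM. Those 4 libraries were above every 3-month library. At 28 months the 3 libraries held 4.58, 7.35 and 18.0 CPM. The slope was 0.095 ± 0.016 (adjusted p = 1.48e-05).

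The PARP and DTX3L group comprises ADP-ribosylating enzymes and the ubiquitin ligase Dtx3l, which works with Parp9. Parp9 rose in 9 regions, Dtx3l in 8 and Parp14 in 5. Parp9 was 1 of 5 members whose steepest slope lay outside the subventricular zone, with 0.057 ± 0.0088 in corpus callosum (adjusted p = 1.82e-06). There it ran from 2.78 to 5.78 CPM with a median of 3.76 CPM at 3 months (n = 10). The 26-month libraries held 11.4, 11.8, 10.1 and 9.91 CPM, and the 28-month libraries held 6.18, 15.1 and 13.2 CPM. All 7 libraries of those ages were above all 10 of 3 months. Parp9 (chr16:35938470-35972621) and Dtx3l (chr16:35926515-35939027) overlap on opposite strands, and in unstranded libraries reads from the shared stretch cannot be assigned.

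Interferon-inducible GTPases target vacuoles that hold parasites and bacteria and respond strongly to type II interferon. Irgm1 (chr11:48865245-48871420) rose in 10 regions, Gbp3 and Igtp in 9 each, and Gbp2 in 6. Irgm1 in the subventricular zone ran from 3.76 to 9.68 CPM with a median of 6.29 CPM at 3 months (n = 10). The 26-month libraries held 30.0, 19.5, 15.4 and 22.1 CPM, all above the 3-month range. The 28-month libraries held 9.65, 18.5 and 42.0 CPM. Its slope was 0.077 ± 0.012 (adjusted p = 1.06e-05). Gbp2 and Igtp had their steepest slopes in corpus callosum, with 0.061 ± 0.011 and 0.056 ± 0.013.

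Among the 10 other interferon-induced genes, Ifi27 and Lgals3bp rose in 13 regions, more than any other member. The regions without a call were entorhinal cortex and olfactory bulb for both. Lgals3bp (chr11:118392747-118401959), a secreted galectin-binding glycoprotein, was steepest in cerebellum, with 0.090 ± 0.011 log2 per month (adjusted p = 2.43e-09). Its levels there were 6.02, 8.31 and 21.7 CPM at 3 months (lowest, median and highest of 10) and 19.2, 29.8 and 48.8 CPM at 15 months (n = 10). The 5 libraries at 26 months held 17.2, 60.7, 50.4, 63.0 and 41.5 CPM, and the 3 at 28 months held 62.9, 41.9 and 37.7 CPM. The median at 15 months was already above the highest 3-month library. Ifi27, a mitochondrial and membrane protein, was well expressed even in motor cortex, where its median was 32.7 CPM at 3 months and 50.0 CPM at 28 months. Reads of Ifi27 may be shared with its relative Ifi27l2a. Rtp4, Xaf1, Rsad2, Ifi44, Sp100, Samd9l and Ifi35 rose in 10, 10, 8, 7, 7, 6 and 5 regions.

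**Figure D2:**
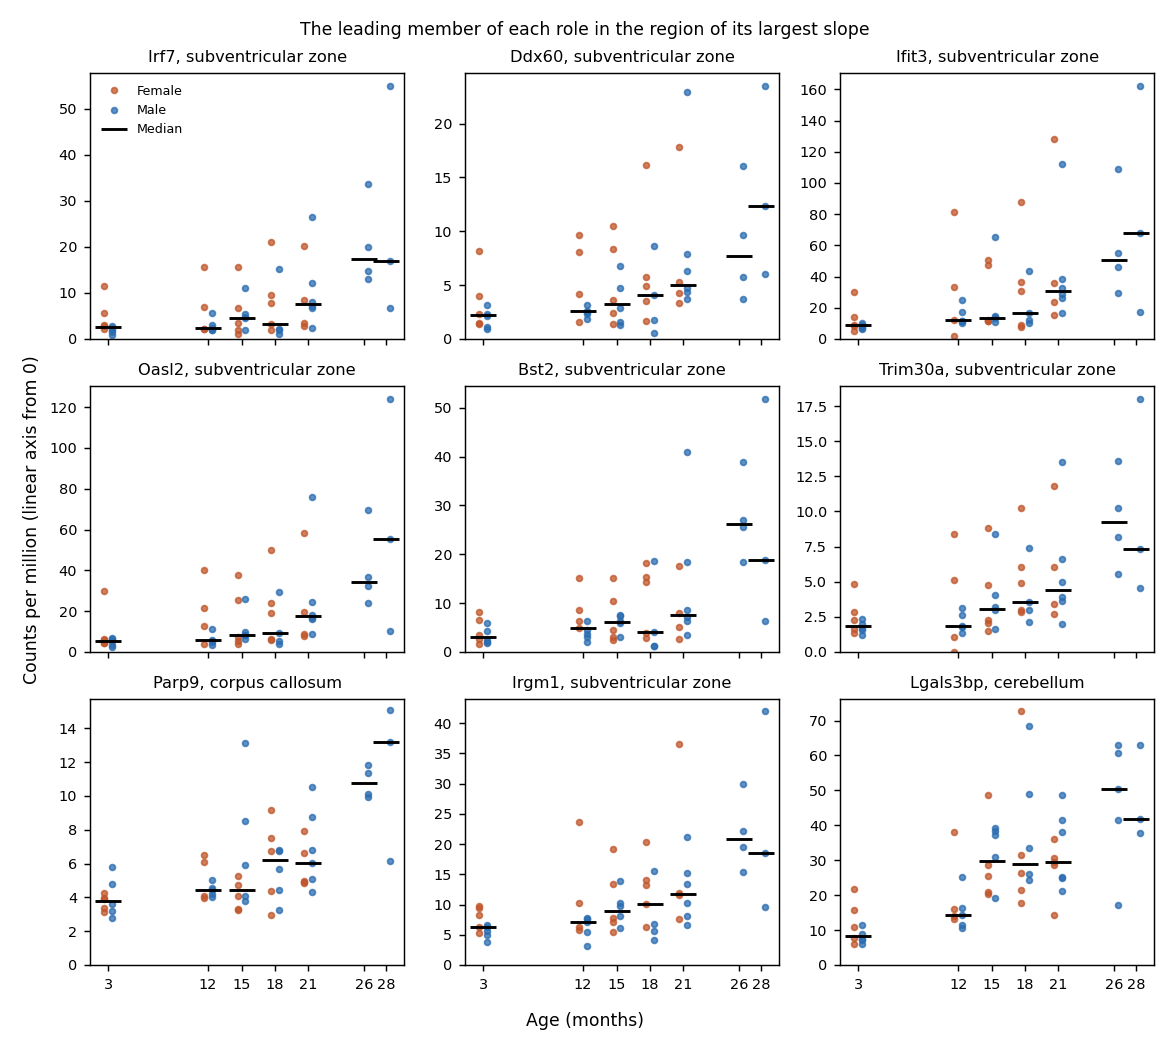
Counts per 1000000 reads (CPM, linear axis from 0) of the leading member of each role in the region of its largest slope, 1 point per library, by age in months, with females and males in different colours and the median as a bar. The medians are higher at 26 months than at 3 months in all 9 panels, and in most panels single libraries of the middle ages reach the level of the oldest.

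The members differed in how far the change spread and how steep it was. By mean slope over regions, the 5 highest were Irf7 (0.056 log2 per month), Oas1a (0.056, over 13 regions), Oas2 (0.055), Usp18 (0.055) and Oasl2 (0.055). The 5 lowest were Ifitm2 (0.00088), Cmpk2 (0.0028), Stat2 (0.0042), Ifi35 (0.018) and Eif2ak2 (0.020). All 36 mean slopes were above 0, 15 members rose in 10 or more regions and 33 rose in 5 or more. Cmpk2, a mitochondrial nucleotide kinase, rose in cerebellum and subventricular zone only, while Rsad2 (viperin), which makes a chain-terminating nucleotide and is its divergent neighbour on chromosome 12, rose in 8. In the subventricular zone Cmpk2 had a median of 51.1 CPM at 3 months and its slope was 0.018 ± 0.0041.

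The level at 3 months was not highest where the change was largest. In CPM scaled within each region, olfactory bulb had the highest 3-month mean for 32 of 36 members, and the highest median for 29. Ifit3 illustrates this, with a median of 21.6 CPM in olfactory bulb (range 12.2 to 72.7, n = 10) and 13.7 CPM in pons, the next region (n = 9). The members with another leading region were Cmpk2 (medulla), Herc6 (visual cortex), Ifi27 (choroid plexus) and Stat2 (cerebellum). By mean rank over members, pons followed olfactory bulb and entorhinal cortex was last, whether ranked by means or medians, while corpus callosum was the third by means and the sixth by medians. These levels are a description, since regions differ in composition.

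The second comparison asked when the response rose, with each later age set against 3 months within a region. All of these comparisons share the 3-month libraries. At 12 months 4 of 538 pairs were higher (background 0.835% of tests over all genes and regions) and 6 were lower (0.927%). The count of higher pairs was 38 at 15 months (0.734%) and 62 at 18 months (1.75%). At 21 months it reached 165 (3.98%). The males of 26 months had 134 pairs higher (2.75%) and those of 28 months 215 (3.69%). The median log2 difference from 3 months over the pairs was 0.06, 0.26, 0.36, 0.49, 0.54 and 0.71 at those ages. The 6 lower pairs at 12 months comprised 5 in olfactory bulb, where 4.23% of all genes were lower (Dtx3l, Ifi35, Ifitm2, Igtp and Irgm1) and Ifitm2 in anterior hippocampus. At later ages 2 further pairs were lower, both in olfactory bulb: Igtp at 18 months, when 5.07% of all genes in that region were lower, and Ifitm2 at 21 months, when 6.95% were.

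The age at which many members were called higher differed between regions. Cerebellum was first, with 27 of 36 members higher than at 3 months already at 15 months (background 1.72%), and 15, 23, 15 and 16 at the later ages. Medulla had 17 at 18 months (2.26%) and 25 at 21 months (4.95%). Choroid plexus had 27 (11.4%), hypothalamus 24 (2.73%) and pons 20 (3.85%) at 21 months. Subventricular zone and corpus callosum reached a majority of their members only at 26 months, with 27 (2.20%) and 23 (3.92%), although their slopes were the steepest. Such counts depend on the spread within a region as well as on the size of the change. In subventricular zone the median log2 difference was 0.71 at 18 months with 0 members called, and 0.99 at 21 months with 13. Medulla had 0.48 at 18 months, and medulla, pons and choroid plexus had 0.61, 0.63 and 0.64 at 21 months. Timing was not tested between regions. Caudate putamen had 3 at 21 months, 2 at 26 months and 33 of 36 at 28 months (5.59%). Entorhinal cortex had at most 1 member higher at any age, and olfactory bulb had none.

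**Figure D3:**
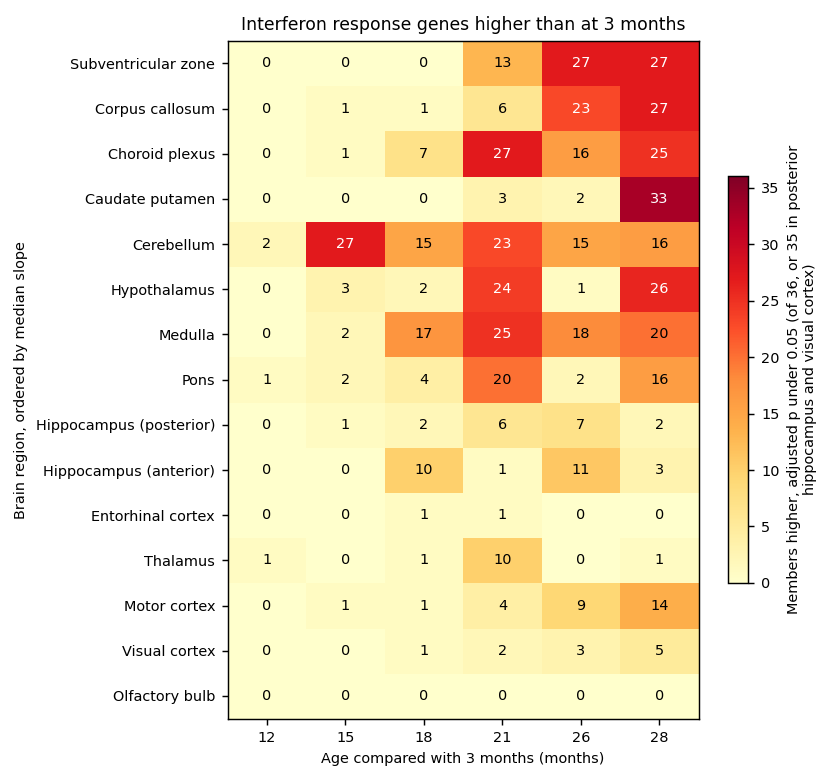
Number of members higher than at 3 months (adjusted p under 0.05, as colour and digits) for each region (rows, ordered by median slope) and later age (columns, in months). Cerebellum reaches 27 members at 15 months, most other affected regions fill at 21 months or later, and caudate putamen goes from 2 at 26 months to 33 at 28 months.

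Steps between neighbouring ages were contrasts in the same fits. The 3-month libraries entered the estimates of spread and sex difference, but no step below was set against them. From 12 to 15 months 11 pairs were higher (background 0.321%), 10 of them in cerebellum (0.479%): Ifi44, Ifit1, Ifitm3, Irf9, Lgals3bp, Oasl2, Rtp4, Trim30a, Usp18 and Xaf1. Rtp4, a chaperone of receptors at the cell surface, rose by 1.24 ± 0.30 on the log2 scale (adjusted p = 0.0173), with medians of 3.25 CPM at 12 months (n = 9) and 4.79 CPM at 15 months (n = 10). Its ranges, 0 to 7.49 and 3.06 to 18.0 CPM, overlapped. Stat2 in thalamus was the other, and Cmpk2 in thalamus fell by 0.24 ± 0.067 (0.35% of all tests over regions were lower). In thalamus 2.25% of all genes were higher and 2.47% lower in that step, so 1 of 36 members in each direction was near the background. No member passed from 15 to 18 or from 18 to 21 months by edgeR's quasi-likelihood test or by DESeq2, where 0.0121% and 0.00419% of all tests were higher and 48 and 86 pairs had an unadjusted p under 0.05. From 21 to 26 months 3 pairs were higher (0.175%): Stat2 in entorhinal cortex, and Ifi27 and Lgals3bp in anterior hippocampus. In those regions 1.07% and 1.11% of all genes were higher in that step, so the single call in entorhinal cortex was little above the background.

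From 26 to 28 months 17 pairs were higher (background 0.736%), of which 10 were in hypothalamus, 5 in caudate putamen and 2 in medulla. In caudate putamen (background 0.0509%) they were Ddx60, Ifi44, Irf9, Isg15 and Oasl2. Isg15 there held 0.946, 2.85, 0.412, 0 and 0.666 CPM in the 5 libraries at 26 months and 1.94, 7.11 and 7.11 CPM in the 3 at 28 months. The rise was 2.45 ± 0.47 on the log2 scale (adjusted p = 0.0108), and the lowest 28-month library lay inside the 26-month range. In hypothalamus, where 3.47% of all genes were called in that direction, 28 months was represented by 2 libraries. Igtp there held 4.60, 7.34, 6.83 and 6.88 CPM at 26 months and 12.4 and 25.3 CPM at 28 months, which do not overlap. In medulla Dtx3l rose by 1.09 ± 0.26 and Irgm1 by 0.67 ± 0.22, beside 7.05% of all genes.

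Single mice carried several of these counts. Without male mouse 26, 15 months old, 15 members were higher in cerebellum at 15 months than at 3 and none passed from 12 to 15 months. Without male mouse 58, 28 months old, no member was higher at 28 months than at 3 in hypothalamus, where a single library remained, and none passed from 26 to 28 months in any region. Without male mouse 2, 26 months old, none passed that step in hypothalamus or caudate putamen, and without mouse 59 none did in caudate putamen. Without male mouse 59, 28 months old, 19 members were higher at 28 months in caudate putamen and none in subventricular zone. In corpus callosum that count was 12 without mouse 58. Among males alone, 28 members were higher at 15 months in cerebellum and 32 at 28 months in caudate putamen, but 4 in hypothalamus, 3 in pons and 6 in corpus callosum at the ages given above. Fits with fewer mice have less power for every gene. The share of all genes called in these fits is not given, so the counts cannot be set against a background.

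A squared age term beside the linear one described the shape of the change. It passed the threshold in 2 of 538 pairs (0.0261% of all tests over genes and regions were higher), Oasl2 in motor cortex (0.0038 ± 0.00077 log2 per month squared, adjusted p = 0.0131) and Ddx60 in caudate putamen (0.0067 ± 0.0014, adjusted p = 0.0205). Neither passed without the 28-month mice or among males alone, and the count was 6 without mouse 2 and 4 without mouse 57, when Oasl2 in motor cortex missed the threshold (adjusted p = 0.0636). The next 3 pairs, Oasl2, Irf9 and Ifitm3 in caudate putamen, had adjusted p of 0.0639, 0.0745 and 0.0788. Oasl2 in motor cortex had medians between 3.02 and 4.22 CPM from 3 to 21 months, then held 6.10, 5.67, 8.31, 6.28 and 4.43 CPM in the 5 libraries at 26 months and 8.40, 6.35 and 8.08 CPM in the 3 at 28 months. In sign, the term was positive for all 36 members in caudate putamen, corpus callosum and olfactory bulb and negative for 35 of 36 in cerebellum, where the increase came early. The high 3-month library of mouse 33 entered the term in olfactory bulb, which was not fitted without that mouse. Terms with an unadjusted p under 0.05 numbered 27 in caudate putamen, 17 in subventricular zone, 16 each in cerebellum and olfactory bulb, 15 in choroid plexus, 11 in motor cortex and 6 or fewer in the other regions.

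Single libraries stood apart from others of their region and age. A score was formed for each library as the mean log2 CPM of the 35 members that passed the filter in all 15 regions, relative to the 3-month mean of the region. It is a description with no test. In 17 of the 847 libraries the score stood more than 1 log2 unit above the median of its region and age. In these 17 between 32 and 36 of the 36 members were above their own median, which the choice of libraries by the same members largely fixes. These libraries came from 14 mice, and 7 of them were of subventricular zone. Interferon-induced genes outside the 36 members had no part in that choice. Of those that passed the filter, between 79.4% and 100% (median 91.2%) were above their median in each of the 17 libraries, whereas the median share over all libraries was 44.4%.

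Most mice with a high library had it in 1 region. Male mouse 26, 15 months old, had 2.29 in corpus callosum, where the median of its age was 0.13. The same mouse had 2.06 in cerebellum (median 0.81) and 1.35 in caudate putamen (0.17), while its lowest region, entorhinal cortex, deviated by -0.60 from the median. Male mouse 5, 26 months old, had 1.76 in posterior hippocampus against a median of 0.16, and the median deviation over its 13 regions was 0.13. Female mouse 7, 12 months old, had 1.74 in subventricular zone against a median of -0.04, with a median deviation of 0.03 over 15 regions. Of the 14 mice, 12 had a single such region, mouse 27 had 2 and mouse 26 had 3. The summed level of the 10 microglia markers was above the median of its region and age in 10 of the 17 libraries and the highest of its group in 3, and its part in the scores was not tested. Another 6 libraries stood more than 1 below their median. They included 3 regions of male mouse 57, 28 months old, and 2 libraries with fewer than 1000000 reads.

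**Figure D4:**
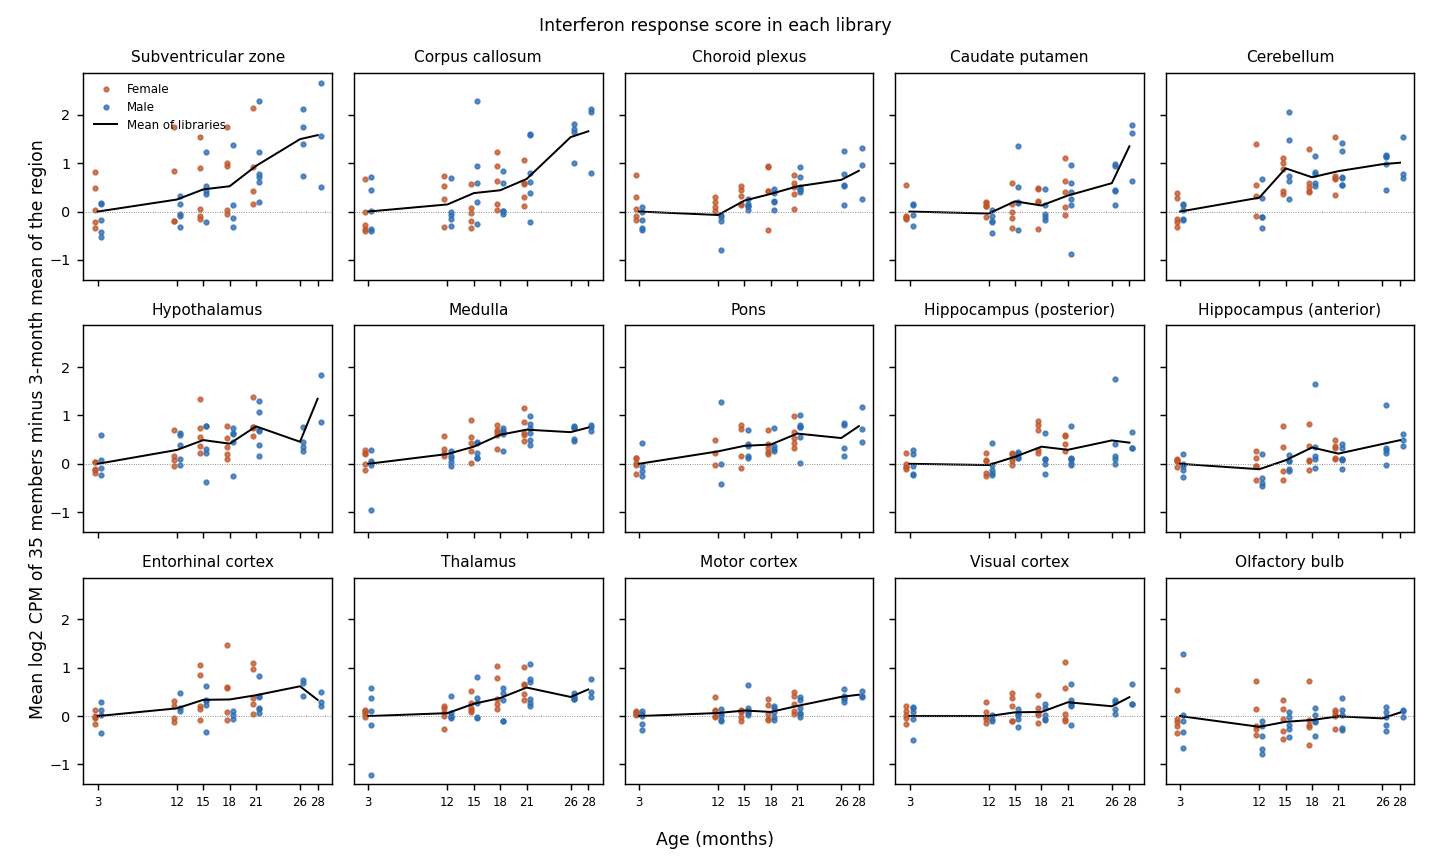
Interferon response score of each library (mean log2 CPM of 35 members minus the 3-month mean of the region, vertical axis) by age in months, 1 panel per region, with females and males in different colours and a line through the means. Single libraries stand far above the others of their age, as the corpus callosum library near 2.3 at 15 months, and the lines climb most in subventricular zone and corpus callosum while olfactory bulb stays near 0.

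By mouse, the mean score over regions was 0.00 ± 0.10 (SD, n = 10) in the youngest mice and 0.08 ± 0.16 (n = 10) in those of 12 months. Mice of 15 months had 0.29 ± 0.19 (n = 10), those of 18 months 0.34 ± 0.17 (n = 10) and those of 21 months 0.50 ± 0.13 (n = 11). The males of 26 months had 0.60 ± 0.28 (n = 5), and the oldest males, of 28 months, had 0.79 ± 0.18 (n = 3). The lowest 28-month mouse, at 0.60, was above every 3- and 12-month mouse. After region, age and sex were taken out, mice accounted for 12.5% of the remaining variance of the score, with an SD of 0.13 between mice and 0.35 within a mouse. The SD within a mouse holds the noise of single libraries as well as differences between regions, and 1 library per mouse and region cannot separate them.

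**Figure D5:**
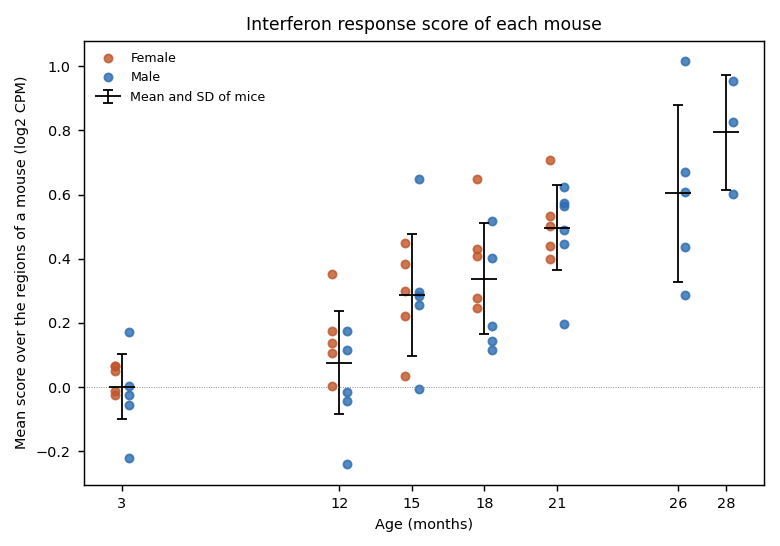
Mean interferon response score over the regions of each mouse (vertical axis, log2 CPM relative to 3 months) by age in months, with females and males in different colours and the mean and SD of the mice at each age. The means climb from 0.00 at 3 months to 0.79 at 28 months, and mice of neighbouring ages overlap.

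The sexes were compared from 3 to 21 months, the ages both have. In level, 8 of 532 pairs passed the threshold, 7 lower in males (1.63% of all tests over regions were lower) and 1 higher (1.38%). Of the 8, 7 were in medulla, where 14.3% of all genes were lower and 10.2% higher in males, so the share of members, 6 of 36 lower and 1 of 36 higher, was near the background. The largest was Samd9l, an antiviral protein of endosomes, with medians of 3.05 CPM in 24 female libraries (range 1.25 to 8.16) and 2.12 CPM in 26 male libraries (0 to 4.17). Its difference was -0.90 ± 0.18 on the log2 scale in males against females (adjusted p = 0.000297), and the ranges overlapped. Dtx3l (-0.64 ± 0.12), Irgm1 (-0.48 ± 0.098), Ifit2 (-0.33 ± 0.090), Oas1a (-0.37 ± 0.13) and Bst2 (-0.38 ± 0.14) were lower in males there too, and Eif2ak2 (0.19 ± 0.072) was higher. Oas1a missed the threshold with DESeq2 (adjusted p = 0.0551), and without mouse 26 the count of members lower in males in medulla was 4. The remaining pair was Gbp3 in choroid plexus (-0.45 ± 0.12, adjusted p = 0.0428), where 0.707% of all genes were lower. In subventricular zone 35 of 36 differences were below 0 with a median of -0.41, and 18 had an unadjusted p under 0.05, but none passed the adjusted threshold by edgeR or by DESeq2.

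In slope with age, no member differed between the sexes by edgeR's quasi-likelihood test: of 532 pairs 32 had an unadjusted p under 0.05, and the pair with the smallest p, Samd9l in cerebellum, had an adjusted p of 0.272. Over all genes 0.00708% of tests were higher and 0.0628% lower in males. DESeq2 called none either, with 24 pairs at an unadjusted p under 0.05.

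The third comparison asked whether the slope of a member in a region differed from its slope in motor cortex, the reference. Motor cortex had a library of every mouse, as had thalamus, and had served as the reference of an earlier analysis. Its median member slope, 0.015 log2 per month, was among the lowest of the regions, and counts against another reference are not given. All 14 such comparisons share the motor cortex libraries. Of 504 pairs, 50 were steeper than in motor cortex (background 1.30%) and 2 less steep (1.08%). They were 15 members in subventricular zone (0.729%), 11 in choroid plexus (2.47%), 9 in corpus callosum (2.14%), 7 in caudate putamen (1.16%), 4 in cerebellum (2.93%), 3 in medulla (2.17%) and 1 in hypothalamus (0.490%). The 2 less steep were Igtp and Lgals3bp in olfactory bulb (3.52% lower). No member differed in entorhinal cortex, either hippocampus, pons, thalamus or visual cortex by this test, where 3, 7, 1, 13, 1 and 4 members in that order had an unadjusted p under 0.05.

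Irgm1 gave 4 of the 5 smallest adjusted p. Its slope was steeper than in motor cortex by 0.069 ± 0.012 log2 per month in subventricular zone (adjusted p = 0.000144), by 0.034 ± 0.0066 in choroid plexus (adjusted p = 0.000311), by 0.042 ± 0.0089 in caudate putamen (adjusted p = 0.00168) and by 0.050 ± 0.011 in corpus callosum (adjusted p = 0.00217). In motor cortex Irgm1 had medians of 13.5 CPM at 3 months (range 12.2 to 17.8, n = 10) and 18.5 CPM at 28 months (14.7, 18.5 and 19.7 CPM). Both ranges overlapped there, whereas in the subventricular zone, as given above, every 26-month library was above every 3-month library. Cmpk2 was the fifth, steeper by 0.023 ± 0.0046 in subventricular zone (adjusted p = 0.000968), where its median went from 51.1 CPM at 3 months to 63.2 CPM at 28 months (n = 3), beside 43.2 and 40.1 CPM in motor cortex. With the mouse as a replicate block 62 pairs were steeper, among them 14 in corpus callosum, 8 in cerebellum and 1 in pons, where the fit without the block called none. Without male mouse 17, 3 months old, the count was 33, and among males alone 25. With mice numbered 16 to 56 alone, which end at 21 months, 20 pairs were steeper, 1 of them in subventricular zone and none in corpus callosum.

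Genes around the response were read from lists chosen by function. None of the 21 interferon ligand genes passed the filter in any region. Ifnb1 had 5 reads in 5 of 847 libraries, Ifng 94 reads in 42, and Ifnk, the most frequent, 539 reads in 301. Of 78 receptor pairs 19 rose and 3 fell: Ifngr1 rose in 7 regions, Il10rb in 6, Ifnar2 in 5 and Ifnar1 in 1, and Ifngr2 fell in 3. Of 119 pairs in the JAK-STAT and feedback list 42 rose and 1 fell. They included the phosphatase Ptpn6 (12 regions), Stat3 (11) and Socs3 (8), while Jak2 and Socs1 rose in none. Of 276 pairs among nucleic acid sensors 58 rose and 1 fell, with Unc93b1, which carries Toll-like receptors to endosomes, in 12 regions, Tmem173 (STING) in 8 and Aim2 in 7. Cgas passed the filter in 10 regions and rose in none. Among other IRF genes 23 of 105 pairs rose, 12 of them Irf8, the factor of microglia and other myeloid cells.

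Of the 43 further interferon-induced genes 40 were in the table, and 188 of their 444 pairs rose and 1 fell. Those that rose in 10 or more regions were Ifi27l2a and Lgals9 (12 each), Tap1 (11), and Epsti1, Ifit3b, Parp12 and Phf11d (10 each). Of 158 pairs of further interferon-inducible GTPases 41 rose and 2 fell, with Gbp6 in 11 regions. The 6.37% of all tests that were higher is the background for each of these lists. Median slopes were 0.022 log2 per month for both of the last lists, 0.0033 for receptors, 0.0083 for JAK-STAT and feedback, 0.0052 for sensors and 0.0036 for other IRF genes.

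Markers of cell types that carry such a response moved in part with it. Of 150 pairs of 10 microglia markers 96 rose and 2 fell, with a median slope of 0.015, and of 120 endothelial pairs 6 rose and 1 fell, with a median of 0.00037. Microglia markers rose in 9 of 10 in subventricular zone, 8 in corpus callosum, 9 in choroid plexus, 8 in cerebellum and 5 in caudate putamen. In anterior and posterior hippocampus 9 each rose and in thalamus 8, where 15, 17 and 13 members rose. In motor cortex none of the 10 rose and 1 fell by the same edgeR test, where 15 members rose, and in visual cortex 2 rose and 1 fell, where 7 members rose. In olfactory bulb 4 microglia markers rose, where no member did. Of 7 astrocyte markers 5 rose in corpus callosum and at most 1 in any other region. In each of motor cortex, visual cortex and olfactory bulb 2 of them fell, and in cerebellum and thalamus 1. Of 8 neuron markers 3 rose in olfactory bulb and 1 in motor cortex, and 3 fell in cerebellum, the most of any region. Of the perivascular and choroid macrophage markers at most 1 rose and at most 1 fell in any region. Of 88 choroid plexus epithelium pairs 8 rose and 3 fell, and of 28 T cell marker pairs that passed the filter 5 rose, 3 of them in choroid plexus. Granulocyte markers such as S100a8, Camp and Ngp rose in 18 of 69 pairs and fell in 2. Both falls were of Lcn2, which rose in none of 15 regions and had a mean slope of -0.051. The rises were 7 of 8 tested markers in visual cortex, 5 of 6 in motor cortex, 5 of 6 in hypothalamus and 1 in corpus callosum, with slopes of up to 0.27 log2 per month for Camp in visual cortex. Blood markers, mainly haemoglobin genes, rose in 16 of 75 pairs and fell in none: all 5 in visual cortex, 4 each in hypothalamus and subventricular zone and 3 in pons. The part of granulocyte and blood RNA in the members' slopes was not tested. The summed level of the 10 microglia markers in subventricular zone was 437 CPM at the median at 3 months (range 363 to 468, n = 10) and 583 CPM at 28 months (564 to 632, n = 3), which do not overlap. In motor cortex it was 383 CPM (354 to 428, n = 10) and 369 CPM (342 to 440, n = 3). With the mean log2 level of these markers as a covariate, 107 pairs rose, of which 96 were among the 302. Over all genes and regions the share called higher was nearly the same, 6.16% against 6.37%, but it changed within regions. Subventricular zone went from 34 members to 4 (background 5.49% in that fit against 4.85% without the covariate). Hypothalamus went from 25 to 0 (0.333% against 4.13%), cerebellum from 25 to 3 (4.99% against 10.5%) and caudate putamen from 29 to 4 (6.35% against 7.68%). Corpus callosum went from 33 to 20 (14.9% against 9.65%). Motor cortex held 15 in both fits (8.70% against 8.39%), and posterior hippocampus went from 17 to 26 (9.13% against 4.53%). Lgals3bp rose in 10 regions in that fit, Irgm1 and Trim30a in 6 each. With the endothelial markers as a covariate 287 pairs rose, and with the choroid plexus markers 304.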

How the data were processed

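RNA of 15 brain regions per mouse was extracted with RNeasy kits and made into unstranded Smart-Seq2 and Nextera XT libraries, per the labels' protocols. The submitters' processing notes name Trim Galore 0.3.7, STAR 2.5.3a, DESeq2 and GRCm38 without their roles. The authors deposited raw read counts per gene for 847 libraries. The counting program, annotation and filters are not given in the sources used here, so reads of near-identical copies and of overlapping genes may be split or shared. Groups came from the labels, each library being a separate animal within a region.

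Each region was fitted alone, over all genes that passed edgeR's filter on low counts, with TMM factors and edgeR 4.0.16 quasi-likelihood tests in R 4.3.3 (age as slope, as squared term or as groups, beside sex). P-values were Benjamini-Hochberg adjusted over all genes of a region, with a threshold of 0.05. A value after ± is a standard error unless marked SD. CPM are counts per 1000000 of TMM-scaled totals, and scores used log2 CPM with a prior count of 2. Folds over 25 months are 2 to the power of slope times months. Regions were compared with motor cortex in joint fits. Libraries with the same mouse number come from the same animal, per the labels, so a fit with the mouse as a replicate block was the alternative.

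Values for 1 member per role, the one that rose in the most regions, are given in full. Further named are the 5 members with the largest and smallest mean slope, those that fell, and the 5 pairs with the smallest adjusted p in the sex, curvature and motor cortex comparisons. Other values named were chosen after they were seen. The members, lists and tests were chosen with earlier results of these data known. Fits were tested on simulated counts, where 84% of 100 genes with a slope of 0.03 log2 per month and 96% of those with 0.06 were recovered in corpus callosum. Alternatives were RLE factors, no filter, DESeq2 1.42.0, males alone, subsets of mice, depth and marker covariates, and single mice or doubtful libraries left out. Tables and plots used Python 3.11.15, pandas 2.3.3 and matplotlib 3.10.9. Results for some genes of the lists are not reported here.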

Additional observations from a re-analysis of the deposited data

Results flagged for a closer look

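Groups of 4 to 6 values of 1 sex and age were screened, for a leading member or for the mean score by mouse. In 14 of the 110 groups, all of leading members, 1 library stood far above the rest of its group. The cut-off would flag about 1 in 20 groups of independent, normally distributed values. Linear CPM were not shown to be normal and many groups share libraries, so no excess over chance can be read from the count. In subventricular zone male mouse 27, 18 months old, had 18.6 CPM of Bst2 and 15.2 CPM of Irf7, against at most 4.11 and 2.15 CPM in the other 3 males. Male mouse 26, 15 months old, had 65.5 CPM of Ifit3 and 25.9 CPM of Oasl2. Male mouse 24, 21 months old, had 22.9 CPM of Ddx60, 112 CPM of Ifit3 and 76.0 CPM of Oasl2. Female mouse 44, 21 months old, had 17.8 CPM of Ddx60 and 36.5 CPM of Irgm1, female mouse 51, 18 months old, had 16.1 CPM of Ddx60, and female mouse 37, 3 months old, had 29.6 CPM of Oasl2. In cerebellum Lgals3bp stood apart in female mice 13 (38.0 CPM at 12 months), 50 (48.8 CPM at 15 months) and 55 (72.8 CPM at 18 months).

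Slopes that differed from motor cortex by the test of the difference were those of Irgm1 in subventricular zone (0.069 log2 per month), choroid plexus (0.034), caudate putamen (0.042) and corpus callosum (0.050), and of Cmpk2 in subventricular zone (0.023).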

How the results depend on the processing

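Counts of pairs summed over regions stayed within 1.5 times of the value reported unless listed here, and the cause of each change was not tested. For these other fits, shares of all genes called are given in this report for the slope with age alone. Rising pairs numbered 162 in mice 16 to 56 alone, 162 in mice with all 15 regions and 107 with the microglia covariate. With that covariate, pairs higher than at 3 months numbered 14, 25, 31, 65 and 99 at 15, 18, 21, 26 and 28 months. Among males alone they numbered 0, 15 and 52 at 12, 18 and 21 months, and at 12 months 9 with DESeq2, 2 with depth covariates and 2 without the filter. From 12 to 15 months the count was 4 with DESeq2, 22 with depth covariates, 1 with endothelial markers and 17 in males. From 26 to 28 months it was 9 with DESeq2, 7 with choroid plexus, 11 with endothelial and 8 with microglia markers. Over the 3 steps between 15 and 26 months it was 1, 5 and 1 with those 3 marker lists. Curvature was called in 0 pairs among males, 1 in mice 16 to 56 and 0 without the 28-month mice. Sex differences numbered 0 in 12-month mice alone, where Ifit2 in medulla reversed to 0.040. Against motor cortex 25 pairs were steeper in males, 20 in mice 16 to 56, 27 without the 28-month mice and 62 with the replicate block. The mean score slope of 0.031 became 0.049 on the z scale, another unit.

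Leaving out single mice, some chosen after seeing the data, gave 282 to 313 rising pairs and 1 to 4, 21 to 40 and 135 to 227 higher pairs at 12, 15 and 28 months. The steps gave 1 to 17 (12 to 15 months), 0 to 21 (26 to 28 months) and 1 to 5 (between 15 and 26 months), curvature 2 to 6 and motor cortex 33 to 72. The subventricular zone slopes of Irf7, Ddx60, Ifit3, Oasl2, Bst2 and Trim30a kept their sign but missed the threshold with the microglia covariate (slopes of 0.080, 0.054, 0.065, 0.065, 0.076 and 0.058, adjusted p between 0.0586 and 0.133). In mice 16 to 56 alone Irf7, Ddx60 and Bst2 missed it (adjusted p of 0.111, 0.0716 and 0.0881). In mice with all 15 regions Irf7, Ddx60, Oasl2, Bst2 and Trim30a did (0.140, 0.0560, 0.0796, 0.125 and 0.0501). At 28 months only 3 mice, all male, limit every statement.

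Rising members of single regions moved by more than 1.5 times in these fits, given with the share of all genes called higher. Without the 28-month mice there were 8 in caudate putamen (4.68%), 12 in hypothalamus (2.41%) and 9 in anterior hippocampus (5.82%). Thalamus had 8 (2.78%) and visual cortex 4 (4.01%) in that fit. Males alone had 7 in hypothalamus (1.39%), 13 in pons (3.35%) and 16 in cerebellum (7.65%). They had 5 and 6 in anterior and posterior hippocampus (4.25% and 1.79%) and 3 in thalamus (1.07%). Mice 16 to 56 had 13 in subventricular zone (1.85%), 5 in corpus callosum (4.75%) and 3 in caudate putamen (3.64%). They had 4 in motor cortex (5.85%), 2 in visual cortex (2.84%) and 5 and 10 in anterior and posterior hippocampus (3.76% and 2.48%). Mice with all 15 regions had 6 in subventricular zone (1.31%), 9 in corpus callosum (6.62%) and 18 in medulla (3.31%). They had 10 each in caudate putamen and cerebellum (2.97% and 6.36%), 5 in motor cortex (5.03%) and 6 in thalamus (1.09%). Visual cortex had 3 (1.26%), and anterior and posterior hippocampus had 3 and 9 (1.87% and 1.7%), in those mice. Thalamus had 8 without the libraries under 1000000 reads (2.4%). Posterior hippocampus had 4 with endothelial markers (1.92%) and 11 with depth covariates (2.52%), and anterior hippocampus 7 with choroid plexus markers (4.89%). Beside the regions given with the microglia covariate above, choroid plexus had 11 (5.6%), medulla 10 (13.8%), pons 4 (6.32%) and thalamus 1 (0.624%). Anterior hippocampus had 2 of 36 in that fit, near the background of 5.87%. Entorhinal cortex, with none reported, had 2 with DESeq2, 2 without the 28-month mice (0.337%) and 4 with choroid plexus markers (0.737%).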
